A study of Homo sapiens with 6 samples.

Results

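The 10 genes described here encode enzymes that make serine, glycine, asparagine, proline and cysteine or pass the carbon of serine into mitochondrial folate metabolism. They were picked by symbol as synthesis enzymes linked to the transcription factor ATF4, and all 10 were found among the 26485 genes of the count table. The members are PHGDH, PSAT1, PSPH, SHMT1, SHMT2, MTHFD2, ASNS, ALDH18A1, PYCR1 and CTH. RNA came from THP1 cells, a human monocytic acute myeloid leukemia (AML) line. Cells grown with serum received the steroidal lactone withaferin A (WFA) or its DMSO vehicle for 6 h, in 3 independent experiments, which gave 3 libraries per group. The sample labels give the WFA concentration as 1 mM and the methods of the study as 1 μM, and no other allele or agent separates the groups. THP1 is a single line, so the 3 libraries of a group are repeat cultures of it and not separate donors.

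Serine is built from the glycolytic intermediate 3-phosphoglycerate in 3 steps, catalysed by PHGDH, PSAT1 and PSPH. SHMT1 in the cytosol and SHMT2 in mitochondria split serine into glycine and a carbon unit carried by tetrahydrofolate, which MTHFD2 oxidises in mitochondria for use in purine and thymidylate synthesis. ATF4 is translated when the initiation factor eIF2 is phosphorylated, during amino acid shortage, unfolded protein stress or oxidative stress, and it binds C/EBP-ATF response elements at many amino acid genes. Asparagine synthesis has a special place in leukemia, because asparaginase treatment exploits cells with little ASNS.

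The ATF4-bound element is best known from the ASNS promoter, so that sequence is shown first. It runs on the minus strand at chr7:97872421-97872506 (GRCh38.p14, RefSeq), with the response element and the downstream hexamer GTTACA in capitals. The E-box in the ALDH18A1 promoter, on the minus strand at chr10:95656812-95656877, is shown beside it because it was the only CACGTG found in the member promoters searched.
ASNS: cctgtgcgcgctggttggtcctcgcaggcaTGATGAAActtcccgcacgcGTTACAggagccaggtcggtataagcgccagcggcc
ALDH18A1: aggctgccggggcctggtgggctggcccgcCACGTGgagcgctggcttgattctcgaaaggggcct
Promoters, here 250 bases before to 50 after the start site, were at hand for 7 members, namely ASNS, PHGDH, PSAT1, SHMT1, MTHFD2, ALDH18A1 and CTH. TGATGNAA, the core of the C/EBP-ATF element, was searched on both strands. It occurred in ASNS, where its first base lies at -68, and in none of the other 6, against 3.67% of 27305 promoters. The ASNS element is followed after 12 bases by GTTACA at -48. Both the hexamer and the spacing were read from the ASNS sequence, so the match of ASNS itself was fixed in advance. No other of the 27305 promoters had both at this spacing, and how many would by chance was not tested. GTTACA alone, added to the search after the ASNS sequence was seen, was in 6.65% of promoters. CACGTG, the E-box of MYC and its partners, was in 7.44% of promoters and, among the members, in ALDH18A1 at -136. TGACNNNGC, the core of the antioxidant response element, was in 13.6% of promoters and, among the members, in MTHFD2 at 6 bases past the start site. Among promoters of 9602 genes tested for expression below, the shares were 1.67% for TGATGNAA, 10.2% for CACGTG, 15.3% for TGACNNNGC and 4.27% for GTTACA. Elements outside these windows were not searched. The expression values of both genes whose promoters are printed follow in their place below.

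Total counts lay between 11006035 and 13872810 reads per library, and no library was a near copy of another. Expression is given as CPM, the count of a gene per 1000000 reads of its library after TMM scaling. All 10 members passed the filter on low counts and had at least 24 reads in each library. The myeloid marker list had a summed level of 2688 to 3227 CPM with DMSO and 2355 to 3147 with WFA. Most of it was LYZ, named after its values were seen, with means of 1823 CPM with DMSO and 1764 with WFA. The filter kept 9 of the 10 genes. By edgeR's quasi-likelihood test 1 of them was higher and 4 were lower (adjusted p-value under 0.05), against 25.8% and 24.7% of all tested genes. SPI1, also picked after its values were seen, lost its lower call in 6 of 13 alternative fits. Of 10 markers of other cell types, 8 stayed under the filter and 3 had no read in any library, HBB and HBA1 among them. The summed level of these 10 was 1.20 to 2.33 CPM with DMSO and 10.4 to 13.9 CPM with WFA, and most of the rise was in COL1A1, named after its values were seen, at 0.211, 0.316 and 0.833 CPM with DMSO and 8.74, 8.54 and 12.6 CPM with WFA. Its part in the results was not tested.

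WFA exposure split the 10 genes. By edgeR's quasi-likelihood test, 5 were higher with WFA (ASNS, PSAT1, PHGDH, CTH and PSPH), 2 were lower (ALDH18A1 and SHMT1) and 3 did not pass the test (SHMT2, MTHFD2 and PYCR1), at an adjusted p-value under 0.05. Over all 12854 genes tested, 25.8% were higher and 24.7% lower by the same rule. The median log2 fold change of the 10 was 0.41, against 0.02 over all tested genes. Every WFA library lay above every DMSO library for 4 members (ASNS, PSAT1, PHGDH and PSPH), a pattern seen in 29.6% of tested genes, and below for ALDH18A1 and SHMT1, a pattern seen in 28.5%. Reads of the 10 genes summed to 625, 588 and 641 CPM in DMSO replicates 1, 2 and 3 and to 714, 774 and 1043 CPM in WFA replicates 1, 2 and 3. Bulk RNA cannot tell a change in each cell from a change in the share of cells that carry a transcript.

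**Figure D1:**
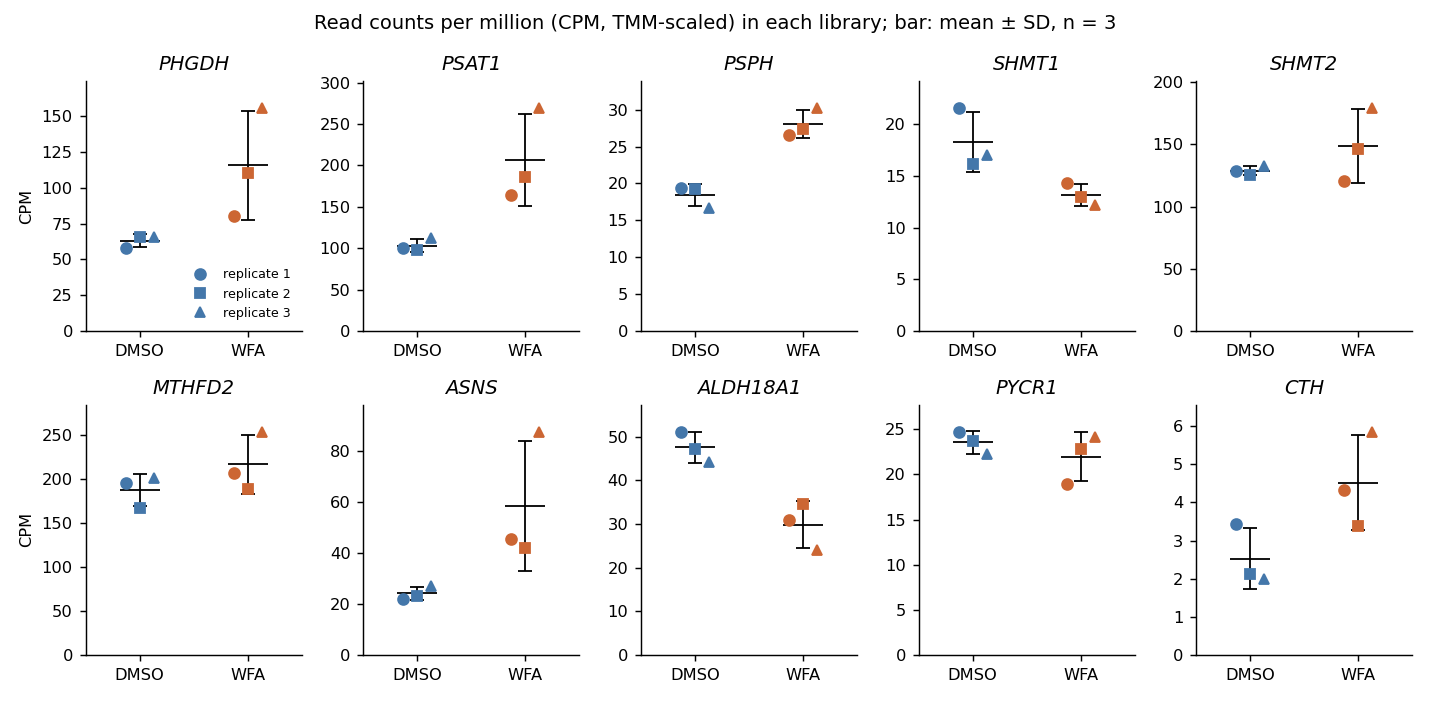
Each panel plots the CPM of 1 gene (linear axis from 0) in the 3 DMSO and 3 WFA libraries, with the mean ± SD (n = 3) and a symbol for each replicate number. PHGDH, PSAT1, PSPH and ASNS have all WFA points above all DMSO points, ALDH18A1 and SHMT1 have them below, and WFA replicate 3 is the highest point for ASNS, at 87.5 CPM.

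All 3 enzymes of the serine pathway rose. PHGDH, which oxidises 3-phosphoglycerate and commits carbon to serine (chromosome 1, 119648411 to 119744226, plus strand, GRCh38), had 58.2, 65.7 and 65.7 CPM in DMSO replicates 1, 2 and 3 and 80.5, 110 and 156 CPM in the WFA replicates. The groups did not overlap, and the WFA libraries were spread far more widely, with an SD of 37.8 against 4.33 CPM. The log2 fold change was 0.87 (standard error, SE, 0.17, n = 3 per group, edgeR adjusted p = 0.000542), or 1.83-fold.
PSAT1, the transaminase that takes nitrogen from glutamate (chromosome 9, 78297143 to 78330093, plus strand), was the most abundant of the 3, with 99.9, 98.2 and 112 CPM with DMSO and 165, 186 and 270 CPM with WFA. Its libraries too were fully separated. The log2 fold change was 1.00 (SE 0.14, n = 3 per group, edgeR adjusted p = 3.85e-05), which is the smallest adjusted p-value among the 10 genes.
PSPH, the phosphatase of the last step (chromosome 7, 56011051 to 56051604, minus strand), had 19.3, 19.2 and 16.7 CPM with DMSO and 26.6, 27.4 and 30.2 CPM with WFA. Its replicates lay close together in both groups, with SDs of 1.46 and 1.91 CPM. The log2 fold change was smaller, 0.61 (SE 0.12, n = 3 per group, edgeR adjusted p = 0.000516).

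Of the serine hydroxymethyltransferases and MTHFD2, SHMT1 fell and the other two did not pass the test without pairing. SHMT2, the mitochondrial serine hydroxymethyltransferase (chromosome 12, 57229327 to 57234935, plus strand), had 129, 126 and 133 CPM with DMSO and 120, 146 and 179 CPM with WFA. WFA replicate 1 lay below all DMSO libraries and the other two lay above them. The log2 fold change of 0.20 did not pass the test (95% interval -0.05 to 0.45, edgeR adjusted p = 0.161), but with the replicate number as a block it was 0.19 and did (edgeR adjusted p = 0.0372).
MTHFD2, the next enzyme of the mitochondrial folate route (chromosome 2, 74198562 to 74217565, plus strand), had 195, 167 and 201 CPM with DMSO and 207, 189 and 254 CPM with WFA. The groups overlapped, since WFA replicate 2 lay below DMSO replicates 1 and 3. Its log2 fold change was 0.20 (95% interval -0.03 to 0.44, edgeR adjusted p = 0.141), and 0.20 with the replicate block (edgeR adjusted p = 0.0237). For both mitochondrial genes the call thus differed between the fits with and without pairing. Differences in log2 CPM within same-numbered pairs were -0.09, 0.22 and 0.44 for SHMT2 and 0.09, 0.17 and 0.34 for MTHFD2. The paired fit takes the error of each gene from a trend over the tested genes, so this spread does not enter its p-values. Without WFA replicate 3 the log2 fold change was 0.05 for SHMT2 (edgeR adjusted p = 0.71) and 0.08 for MTHFD2 (edgeR adjusted p = 0.56).
SHMT1, the cytosolic counterpart (chromosome 17, 18327860 to 18363563, minus strand), fell from 21.6, 16.2 and 17.0 CPM with DMSO to 14.3, 13.0 and 12.2 CPM with WFA. No libraries overlapped, although DMSO replicate 1 stood above the other DMSO libraries. The log2 fold change was -0.47 (SE 0.14, edgeR adjusted p = 0.0121), and without DMSO replicate 1 it was -0.34 and no longer passed (edgeR adjusted p = 0.0834).

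ASNS, which transfers an amide from glutamine to aspartate and whose promoter holds the response element printed above (gene at chromosome 7, 97852118 to 97872542, minus strand), had the largest log2 fold change of the 10. It had 22.02, 23.1 and 27.0 CPM in DMSO replicates 1, 2 and 3 and 45.6, 41.9 and 87.5 CPM in WFA replicates 1, 2 and 3. WFA replicate 3 lay far above the other two, which themselves exceeded all DMSO libraries. The log2 fold change was 1.27 (SE 0.21, n = 3 per group, edgeR adjusted p = 0.00017), or 2.42-fold. Without WFA replicate 3 it was 0.87 and still past the threshold.

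The proline route did not rise. ALDH18A1, which reduces glutamate toward pyrroline-5-carboxylate and whose promoter holds the E-box printed above (gene at chromosome 10, 95605929 to 95656706, minus strand), fell from 51.2, 47.1 and 44.3 CPM with DMSO to 31.0, 34.6 and 24.1 CPM with WFA. The groups were well separated. Its log2 fold change was -0.67 (SE 0.12, n = 3 per group, edgeR adjusted p = 0.000408).
PYCR1, the mitochondrial reductase that completes proline (chromosome 17, 81932384 to 81942412, minus strand), had 24.8, 23.7 and 22.2 CPM with DMSO and 19.0, 22.9 and 24.1 CPM with WFA. Its libraries overlapped, and the log2 fold change was -0.10 (95% interval -0.36 to 0.16, edgeR adjusted p = 0.505).
CTH, which releases cysteine from cystathionine (chromosome 1, 70411218 to 70439851, plus strand), had the lowest counts of the 10, between 24 and 63 reads per library. It had 49, 27 and 24 reads with DMSO and 53, 42 and 63 reads with WFA, which came to 2.53 ± 0.80 and 4.52 ± 1.25 CPM (SD, n = 3 each). On the CPM scale WFA replicate 2 (3.38) lay just below DMSO replicate 1 (3.45), so the groups overlapped. Its log2 fold change of 0.81 (SE 0.27, edgeR adjusted p = 0.0209) was the least certain of the calls. It no longer passed without WFA replicate 3 (0.60, edgeR adjusted p = 0.113), without DMSO replicate 2 (0.69, adjusted p = 0.0726) or without DMSO replicate 3 (0.67, adjusted p = 0.0824).

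**Figure D2:**
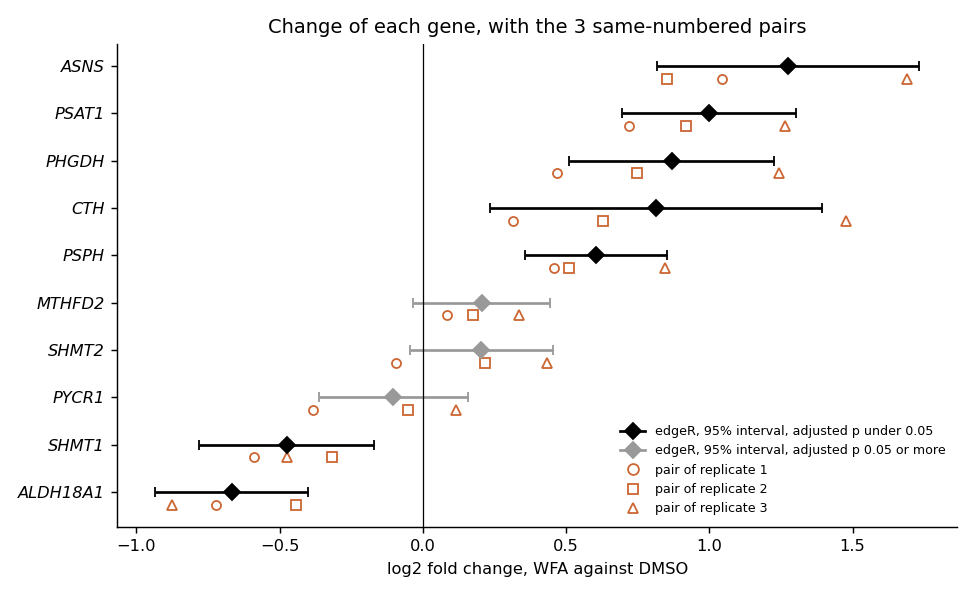
Diamonds give the log2 fold change of each gene (WFA against DMSO, edgeR) with its 95% interval, black where the adjusted p-value was under 0.05 and grey otherwise. Open symbols give the differences within the pairs of same-numbered libraries. Pair 3 is the rightmost symbol for 8 of the 10 genes, from 1.69 for ASNS to 0.11 for PYCR1.

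The size of the response differed between the 3 experiments. Within same-numbered pairs, the difference in log2 CPM of ASNS was 1.04, 0.85 and 1.69 in pairs 1, 2 and 3. That of PHGDH was 0.47, 0.75 and 1.24, and that of PSAT1 was 0.72, 0.92 and 1.27. CTH had the widest range, with 0.32, 0.63 and 1.48. Pair 3 gave the highest value for 8 genes, the exceptions being SHMT1 and ALDH18A1, and pair 1 gave the lowest value for 8 genes. For ALDH18A1 the fall was also deepest in pair 3, at -0.87, against -0.72 in pair 1 and -0.44 in pair 2. SHMT1 ranged from -0.59 to -0.32. The median over the 10 genes was 0.20, 0.36 and 0.64 in pairs 1, 2 and 3, while over all tested genes it was 0.01, 0.01 and 0.03. WFA replicate 3 was the highest WFA library for all 5 genes that rose, and for 49.8% of the 3311 tested genes that were higher with WFA. With WFA replicate 3 left out, 4 members were higher and 2 lower.

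Levels were also set per kilobase of exon (GENCODE 29), which allows genes to be compared. With DMSO, PSAT1 stood highest at 47.3 ± 3.45 CPM per kb (SD, n = 3), followed by SHMT2 at 42.6 ± 1.16 and MTHFD2 at 42.2 ± 4.11 CPM per kb. SHMT2 and MTHFD2 did not differ beyond their spread, and the highest MTHFD2 library (45.2) lay above the lowest of PSAT1 (44.9), while the highest of SHMT2 was at 43.8. PHGDH followed at 23.7 ± 1.63 CPM per kb. ALDH18A1 (14.2 ± 1.03 CPM per kb), PYCR1 (10.2 ± 0.549), ASNS (9.66 ± 1.05), PSPH (8.46 ± 0.669) and SHMT1 (6.48 ± 1.04) followed, and CTH was at 1.18 ± 0.374 CPM per kb. Of these neighbours, PYCR1 and ASNS overlapped, as did ASNS and PSPH. With WFA, PSAT1 reached 94.5 ± 25.3 CPM per kb, and ASNS at 23.4 ± 10.2 CPM per kb stood above ALDH18A1 at 8.90 ± 1.59 in every library, which reversed the order of these genes with DMSO. PHGDH at 43.4 ± 14.2 CPM per kb overlapped SHMT2 at 49.1 ± 9.76 and MTHFD2 at 48.6 ± 7.57. The order is approximate, because the annotation the authors counted on is not given in the sources used here.

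Ratios of related enzymes within a library do not depend on how libraries are scaled. The 4 ratios given here had no overlap between the groups. The log2 ratio of SHMT2 to SHMT1 reads was 2.57, 2.95 and 2.96 in the DMSO libraries and 3.07, 3.49 and 3.87 in the WFA libraries, so that the balance moved toward the mitochondrial enzyme by 0.65. The log2 ratio of MTHFD2 to MTHFD1, the cytosolic enzyme with 3 activities, was -0.05, 0.15 and 0.31 with DMSO and 0.72, 1.02 and 1.55 with WFA, a shift of 0.96.
The log2 ratio of MTHFD2 to MTHFD1L, the formyltetrahydrofolate synthetase that follows it in mitochondria, moved from 0.33 ± 0.04 to 1.01 ± 0.14 (SD, n = 3 each). Against MTHFD2L, its close relative, it went the other way, from 5.49 ± 0.38 to 4.66 ± 0.28 (SD, n = 3 each), since MTHFD2L rose from a low level. Exact two-sided permutation tests gave p = 0.1 for each of these 4 ratios, the smallest value that 3 libraries against 3 allow, and 0.125 after adjustment over the 5 ratios tested.
Another 2 ratios were looked at after the values were seen and were not tested. The log2 ratio of PSAT1 to SHMT2 reads was -0.36, -0.35 and -0.24 with DMSO and 0.45, 0.35 and 0.59 with WFA, a shift of 0.78. That of PHGDH to ALDH18A1 was 0.18, 0.48 and 0.57 with DMSO and 1.38, 1.67 and 2.69 with WFA, a shift of 1.503. These genes differ in exon length, so the sign of a read ratio does not order their levels.

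**Figure D3:**
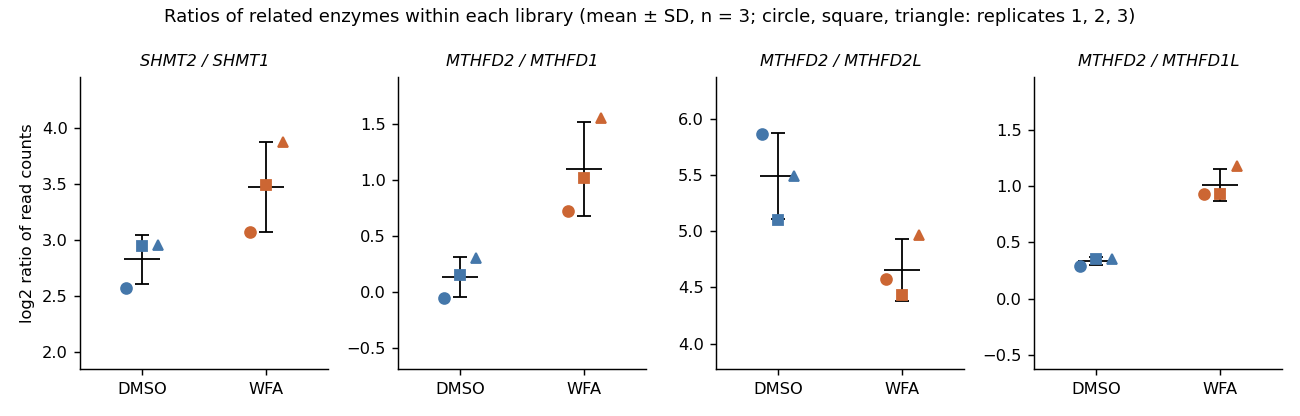
Each panel plots the log2 ratio of read counts of 2 related enzymes in each library, with the mean ± SD (n = 3), and all panels span the same number of log2 units. SHMT2/SHMT1, MTHFD2/MTHFD1 and MTHFD2/MTHFD1L are higher with WFA, and MTHFD2/MTHFD2L is lower.

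The genes around this pathway were read from lists of the same fit, and each count is to be set beside the 25.8% higher and 24.7% lower over all tested genes. The shares of the lists were not tested against these. The filter kept 20 of 22 other folate genes, of which 5 rose and 10 fell, with a median log2 fold change of -0.43. MTHFD1 and MTHFD1L were among the lower ones, at -0.75 (SE 0.13, edgeR adjusted p = 0.000279) and -0.49 (SE 0.10, edgeR adjusted p = 0.000633). The smallest p-values among falls belonged to SLC25A32, the carrier of folate into mitochondria (log2 fold change -1.07), MTR, the methionine synthase (-0.94), and SFXN1, a mitochondrial serine transporter (-0.75). SFXN1 thus went from 76.4 ± 4.09 to 45.3 ± 2.57 CPM (SD, n = 3 each), while the genes that make serine rose. Among the rises were ALDH1L2, which oxidises formyltetrahydrofolate in mitochondria (0.88), and MTHFD2L (1.03).

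Of 15 other glutamate, proline and transaminase genes, 11 were tested, with 3 higher, 3 lower and a median log2 fold change of -0.02. ARG2, the mitochondrial arginase, rose from 1.97, 1.97 and 1.67 CPM to 19.0, 16.8 and 20.6 CPM, a log2 fold change of 3.31 (SE 0.18, edgeR adjusted p = 2.03e-09). ALDH4A1, which turns pyrroline-5-carboxylate back into glutamate, rose by a log2 fold change of 1.09 (SE 0.16, edgeR adjusted p = 5.42e-05), whereas ALDH18A1 of the synthetic direction fell. GOT2, GLUD1 and GLUD2 had log2 fold changes of -0.42, -0.34 and -0.56, and reads of the near-identical GLUD1 and GLUD2 cannot be assigned with certainty. The call of GLUD2 was lost without DMSO replicate 2 or WFA replicate 3.
Of 21 genes that use or break down serine, glycine or asparagine, 17 were tested, with 4 higher, 2 lower and a median log2 fold change of 0.01. ALAS1, which joins glycine and succinyl-CoA in heme synthesis, rose by a log2 fold change of 1.14 (SE 0.10), as did GLYCTK, glycerate kinase (1.79, SE 0.26), and SDS, serine dehydratase (1.21, SE 0.21). ASNSD1, which shares a domain with ASNS, had a log2 fold change of -1.14 (SE 0.10), against 1.27 for ASNS. NIT2 fell by 0.32 on the log2 scale (SE 0.11), a call lost without DMSO replicate 1, DMSO replicate 2 or WFA replicate 3.
Of 18 genes of the methionine cycle and transsulfuration, 14 were tested, with 6 higher, 1 lower and a median log2 fold change of 0.33. SQRDL, which oxidises sulfide, SUOX, sulfite oxidase, and AHCYL2 rose by log2 fold changes of 1.09, 1.08 and 1.48. MAT2A, which makes S-adenosylmethionine, was the lower one, at -0.67. CBS, which forms the cystathionine that CTH cleaves, was picked after its values were seen. It had 1.34, 1.03 and 1.25 CPM with DMSO and 2.70, 3.38 and 3.26 CPM with WFA, a log2 fold change of 1.36 (SE 0.26, edgeR adjusted p = 0.00053). These levels rest on few reads, 19, 13 and 15 with DMSO and 33, 42 and 35 with WFA.

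**Figure D4:**
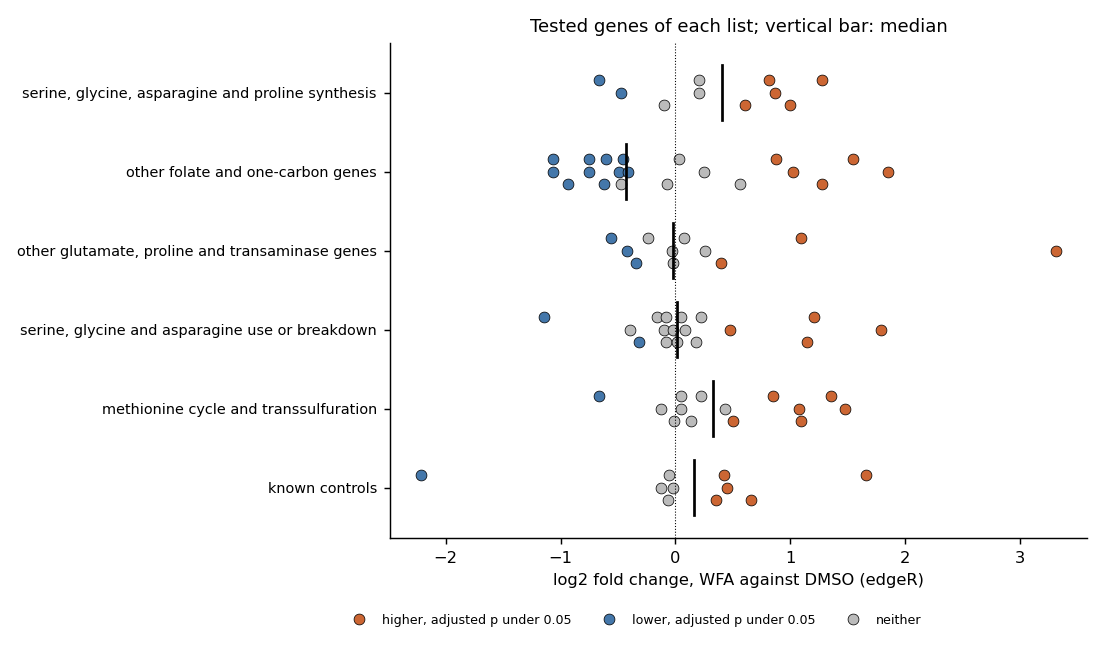
Each point is the log2 fold change (WFA against DMSO, edgeR) of 1 tested gene, in rows by list, coloured where the adjusted p-value was under 0.05, and vertical bars mark medians. The median of the 10 synthesis genes is 0.41 and that of the other folate genes -0.43.

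Among 10 known controls of these genes, 5 were higher and 1 was lower, against 25.8% and 24.7% of all tested genes. ATF4 itself had 208, 218 and 225 CPM with DMSO and 257, 274 and 359 CPM with WFA (log2 fold change 0.45, SE 0.11, edgeR adjusted p = 0.00372). DDIT3, an ATF4 target that encodes CHOP, rose more, from 28.8, 30.7 and 32.0 CPM to 83.7, 75.0 and 131 CPM (log2 fold change 1.66). In both, as in ASNS, WFA replicate 3 was the highest library. Among all 3311 tested genes higher with WFA, this replicate was the highest WFA library for 49.8%. EIF2AK3 (PERK) and EIF2AK2 (PKR), kinases of eIF2, and CEBPB, a partner of ATF4, rose by log2 fold changes of 0.66, 0.36 and 0.43, while EIF2AK1 (-0.13), EIF2AK4 (-0.07), CEBPG (-0.02) and NFE2L2, which encodes NRF2 (-0.05), did not pass the test. With total counts in place of TMM, which shifts the median of all genes by -0.08, EIF2AK2 (0.27) and CEBPB (0.34) no longer passed and EIF2AK1 (-0.21) did. CEBPB also lost its call without DMSO replicate 1, DMSO replicate 2 or WFA replicate 3, and EIF2AK2, whose libraries overlapped, without any of these or WFA replicate 1. EIF2AK2 also missed the threshold with DESeq2 (adjusted p = 0.0542). MYC, which drives many biosynthetic genes, fell in all 3 pairs, with differences in log2 CPM of -2.11, -2.09 and -2.43. Whether these controls had a part in the changes of the members was not tested.
All 4 motifs were also set against the calls of the 9602 tested genes with a promoter. Of 160 genes with TGATGNAA, 27.5% were higher and 24.4% lower, against 25.9% and 25.5% of those without it. Of 978 genes with CACGTG, 25.7% were higher and 28.7% lower, against 25.9% and 25.1% without it. Of 1467 genes with TGACNNNGC, 27.3% were higher and 24.6% lower, against 25.6% and 25.6% without it. Of 410 genes with GTTACA, the hexamer of the ASNS promoter, 21.95% were higher and 32.4% lower, against 26.1% and 25.2% without it. These shares are descriptions over all matched genes and were not tested.

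Some members share sequence or position with other genes. SHMT1 overlaps SMCR8 on the opposite strand, which had 672 to 772 reads with DMSO and 917 to 957 with WFA and rose while SHMT1 fell (log2 fold change of SMCR8 0.56, SE 0.09, edgeR adjusted p = 0.000152). SHMT2 overlaps NDUFA4L2, MTHFD2 overlaps SLC4A5, and PYCR1 overlaps MYADML2 on its own strand, each with at most 31 reads in any library. Whether counting used strand is not given, so reads in shared exons cannot be told apart. GENCODE 29 also names 4 pseudogenes of ASNS, 4 of PSAT1, 1 of PSPH, 1 of SHMT1 and 7 of MTHFD2. Only 1 of them, of MTHFD2, has a row in the count table, with no read, and how reads with several matches were treated is not given, which leaves the absolute level of these 5 members uncertain.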

How the data were processed

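RNA from 6 THP1 cultures, 3 with DMSO and 3 with WFA for 6 h, was sequenced from TruSeq RNA v2 libraries. The authors deposited whole-number read counts per gene symbol without normalization, and beside them a size-factor-scaled and rounded score per library, which was not used. The submitters' notes name bcl2fastq 2.19, Trimmomatic, Bowtie2, Picard, featureCounts, DESeq2 and the build hg38. The annotation counted on is not given in the sources used here. The deposited file also holds the authors' own fold changes, p-values and dispersions, which were not used.
Counts were analysed with edgeR 4.0.16 (R 4.3.3), using TMM factors and the quasi-likelihood test on the 12854 genes kept by filterByExpr at min.count 10. P-values were adjusted by Benjamini-Hochberg over all tested genes, with a threshold of 0.05. The standard error is the absolute log2 fold change over the square root of F. Differences within pairs are of log2 CPM with a prior count of 2. Ratios used counts plus 0.5 and exact permutation tests. The fits were tested on simulated counts with 200 changed genes, far fewer than were called here. The simulation had no replicate effect, so it cannot check the replicate block.
Depth was 11006035 to 13872810 reads per library. It does not set the precision alone, because libraries of the same group differed by more than counting error. The chi-square per gene for equal shares of reads, averaged over genes, was 5.92 to 10.9 between such libraries. The cultures are 3 independent experiments. Sample descriptions share a date code between same-numbered libraries, which also deviated together from their group means (correlations over genes of 0.22, 0.33 and 0.25), so the replicate number was tried as a block. That fit has 2 residual degrees of freedom against 4. Its prior degrees of freedom were infinite, against 10.81 without the block. Its errors therefore came from the trend over genes and not from the spread of each gene, and its p-values may be too small for genes whose pairs vary widely.
The members, gene lists and motifs were chosen with earlier results of these data known. Named genes are the members, their paralogs, the listed controls, and up to 3 rises and 3 falls with the smallest p-value of each other list, and results for a few of them, with 1 of the 5 tested ratios, are not reported here. Alternatives were DESeq2 1.42.0, other scalings and filters, the block and leaving out each library. Promoters came from RefSeq (GRCh38.p14), with 9602 of the tested genes matched by symbol, and gene positions and exon lengths from GENCODE 29.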

Additional observations from a re-analysis of the deposited data

How the results depend on the processing

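No direction turned for the 10 members in the 13 alternative fits, or for the 4 tested ratios given under another pseudocount, the replicate block or leaving out each library. ASNS, PSAT1, PHGDH, PSPH and ALDH18A1 passed the threshold in all 13. The median of the 10 members stayed between 0.32 and 0.49. SHMT2 passed in 2 of the 13, with the replicate block and without WFA replicate 1 (0.34, edgeR adjusted p = 0.0164), and MTHFD2 in 2, with the block and without WFA replicate 2 (0.30, edgeR adjusted p = 0.0436). Both were smallest without WFA replicate 3, at 0.05 and 0.08. Members called higher numbered 7 with the replicate block against 5, and 4 to 6 with each library left out. Members called lower numbered 1 or 2 with each library left out, 1 only without DMSO replicate 1. Among the listed controls 3 were higher and 2 lower with total counts in place of TMM, against 5 and 1, and 3 to 5 were higher with each library left out, 3 without DMSO replicate 1, DMSO replicate 2 or WFA replicate 3. Among genes that use or break down serine, glycine or asparagine, 1 to 3 were lower with each library left out, 1 without DMSO replicate 1, DMSO replicate 2 or WFA replicate 3. The causes were not tested. The replicate block raised all called genes to 3877 higher and 3708 lower, from 3311 and 3178. Beyond SHMT2 and MTHFD2 it changed no call among the members. With infinite prior degrees of freedom, the block fit leaves the spread of each gene out of these calls, so the added calls are less certain. Counting error limits CTH most, with 24 to 63 reads.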
